A study of Mus musculus with 6 samples.

Results

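Cholesterol synthesis and sterol regulation were followed in germinal centre B cells through 28 genes fixed by symbol, with earlier results of these data known. All 28 were among the 23420 genes listed in each library, 1 of them (Msmo1) under its older symbol Sc4mol. They comprise 18 enzymes of the pathway from acetyl-CoA to cholesterol, 1 branch enzyme (Ggps1), 7 genes of sterol sensing, regulation and transport, and 2 sterol exporters. The libraries held messenger RNA of germinal centre B cells sorted from mouse spleen 10 days after the mice had been immunized with the hapten-carrier antigen NP-KLH. The KO group was BASP1 fl/fl hCD20TamCre+/- and the WT group BASP1 +/+ hCD20TamCre+/-, with 3 libraries each. The tamoxifen-dependent Cre transgene of B cells was thus present in both groups, and both received tamoxifen at 1 mg per dose on day 5, day 7 and day 9. CD20 marks B cells in general and not germinal centre B cells alone. The labels give no strain or age and do not say whether libraries came from separate mice. The p-values thus rest only on spread between these libraries, taken mostly from other genes, and that spread may be technical. In bulk samples like these, fewer cells of a type and less RNA per cell cannot be told apart.

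Cells build cholesterol by joining acetyl-CoA units into mevalonate, turning mevalonate into isoprenoids and squalene, and closing squalene into a sterol ring that further enzymes trim. The supply is set by feedback. When membrane sterol is low, SCAP escorts the SREBP transcription factors to the Golgi, where they are cut and released to switch on the pathway, while INSIG proteins hold SCAP back when sterol is plentiful. Excess sterol in the form of oxysterols activates LXR receptors, which induce the exporters ABCA1 and ABCG1. Dividing lymphocytes need the pathway for new membrane, and its isoprenoid branch supplies the lipid anchors of Ras and related small GTPases.

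Sequences before the start sites are shown for the member with the largest difference between the groups among the enzymes (Dhcr7), an SREBP target of the early pathway (Hmgcs1), a feedback regulator (Insig1) and the SREBP gene with the higher level (Srebf2). They are taken from RefSeq (GRCm38.p6), up to 250 bases before the start and ended at the first base that GENCODE M21 annotates as exon, all on the plus strand. The stretches are chr7:143822917-143823144 for Dhcr7, chr13:119690101-119690350 for Hmgcs1, chr5:28071162-28071362 for Insig1 and chr15:82147019-82147180 for Srebf2. Capitals mark CCAAT, the letters bound by NF-Y, and CACNCCAC, a core of the sterol regulatory element, on either strand.
Dhcr7: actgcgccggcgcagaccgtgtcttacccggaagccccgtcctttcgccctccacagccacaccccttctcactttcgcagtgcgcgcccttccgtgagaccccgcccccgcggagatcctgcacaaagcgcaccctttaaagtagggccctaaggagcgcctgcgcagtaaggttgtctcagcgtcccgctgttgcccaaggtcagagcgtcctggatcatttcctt
Hmgcs1: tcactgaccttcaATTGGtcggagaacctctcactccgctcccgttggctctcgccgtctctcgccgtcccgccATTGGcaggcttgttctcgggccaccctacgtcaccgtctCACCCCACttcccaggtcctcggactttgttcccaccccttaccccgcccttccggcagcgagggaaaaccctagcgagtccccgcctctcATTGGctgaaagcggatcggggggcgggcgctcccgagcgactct
Insig1: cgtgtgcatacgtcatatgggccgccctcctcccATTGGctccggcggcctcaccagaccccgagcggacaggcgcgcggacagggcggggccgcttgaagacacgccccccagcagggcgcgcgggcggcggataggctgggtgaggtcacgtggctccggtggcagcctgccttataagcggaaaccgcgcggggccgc
Srebf2: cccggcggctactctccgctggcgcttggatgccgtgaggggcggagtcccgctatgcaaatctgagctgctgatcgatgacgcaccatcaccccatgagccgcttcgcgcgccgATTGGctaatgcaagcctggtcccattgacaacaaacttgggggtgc

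The table of start-site sequences matched 23 of the 28 members, and Fdps, Fdft1, Sqle, Stard4 and Abcg1 were not matched. CCAAT was found on either strand in the 250 bases before at least 1 start of 19 of the 23 (82.6%), against 41.6% of the 7656 genes in the KO against WT comparison that could be matched and 33.8% of all 32851 start sites. GGGCGG, the GC box bound by Sp1, was found in 20 of 23 members, against 65.3% of those 7656 genes. The longer sterol element TCACNCCAC was found in 1 member, Hmgcs1, against 1.21%, and its shorter core CACNCCAC, which every longer match contains, in 3 (Acat2, Hmgcs1 and Insig1), against 6.47%. In Hmgcs1 the last base of the match lay 129 bases before the start. The Dhcr7 stretch shown holds neither set of capitals. In Dhcr7, CCAAT lay before a further start inside the gene, within annotated exons. The CACNCCAC match of Insig1 lay next to the start, in annotated exon, and is likewise not printed. These matches describe letters in a window and are not evidence of binding.

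Deposited values were log2 CPM (counts scaled to a common library total), and each library summed to between 997617 and 1000513 CPM with 10160 to 10173 genes at or above 1 CPM. The read depth of the libraries is unknown. Sums of the WT and KO values of a replicate number were equal over the 3 numbers to within 0.001, so a gene carries a mean and 3 paired differences. Basp1 fell from 49.7 to 8.70 CPM, a difference of -2.51 ± 0.45 on the log2 scale (SD, n = 3 pairs; limma adjusted p = 3.3e-16). Markers of germinal centre B cells summed to 4200 to 4500 CPM in every library. The 6 T cell markers listed together made up 1.26 to 1.85 CPM in WT and 1.08 to 1.43 in KO. Of these only Cd3e was at the floor of -5.063 in all 6 libraries. The 12 macrophage markers together made up 9.53 to 16.6 CPM.

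Members differed widely in level. Dividing by exon length (the union of all annotated exons, GENCODE M21) put the lanosterol demethylase gene Cyp51 first, at 6.33 ± 0.04 log2 CPM per kb (mean ± SD of 6 libraries), followed by Fdps, the farnesyl diphosphate synthase gene, at 6.05 ± 0.10 and Acat2, a thiolase of the entry step, at 5.83 ± 0.05. Srebf2, which encodes SREBP2, the main activator of the pathway, followed at 5.71 ± 0.07. It stood above Srebf1, which encodes SREBP1 and is known more for fatty acid synthesis, at 4.31 ± 0.06. Among the enzymes from squalene on, Sqle (5.41 ± 0.02) and Msmo1 (5.31 ± 0.09) stood near the top. Dhcr7, whose product reduces 7-dehydrocholesterol to cholesterol, was far lower at 2.14 ± 0.24, and Tm7sf2, a sterol C14 reductase, lay at -0.01 ± 0.18. The exporters were lowest on this per-length scale, with Abca1 at -0.02 ± 0.24 and Abcg1 at -1.56 ± 0.71. Neighbours such as Hmgcs1 (5.45 ± 0.06) and Sqle, Ggps1 (3.22 ± 0.05) and Mvk (3.19 ± 0.09), or Tm7sf2 and Abca1 lay within the larger SD of each other. Because pair sums were equal, these SDs hold no spread of the pair means and include the difference between WT and KO. They are thus no full measure of spread between libraries. Lengths that include rare alternative exons understate a level, as may be so for Lss with 10787 bases, Dhcr7 with 5817 and Tm7sf2 with 4403. The order of the genes depends on these lengths.

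**Figure D1:**
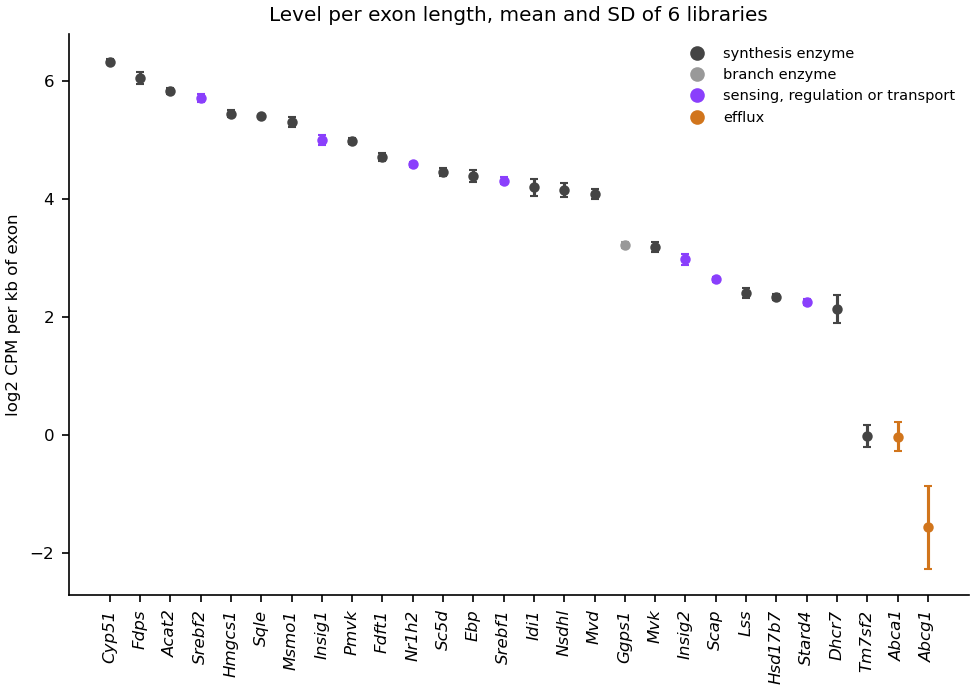
Level of each of the 28 sterol genes per kb of exon (vertical axis, log2 CPM per kb), ordered from high to low and coloured by role. Points are means and bars SDs of the 6 libraries. Cyp51 is highest at 6.33, and Tm7sf2 and the exporters Abca1 and Abcg1 stand apart at -0.01 or below.

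The comparison of KO with WT asked whether loss of Basp1 went with a different level of these transcripts. Most synthesis enzymes and regulators lay close to their WT level. The largest difference among the enzymes was that of Dhcr7, the last step, at 1.35 times the WT level in KO, and the next that of Idi1, the isopentenyl diphosphate isomerase gene, at 1.14 times. None of the 28 members passed 5% FDR by limma, with the smallest adjusted p at 0.0581 (Dhcr7) and the next at 0.527 (Idi1). Over all 10133 genes tested, 27 (0.266%) passed. At an unadjusted p under 0.05 there were 2 members (Dhcr7 and Idi1), against 8.82% of all genes tested. All 28 members passed the limit of a mean of 1 CPM. The mean difference was under 0.2 in size on the log2 scale for 26 of them, all but Dhcr7 and Abcg1. The 95% interval of limma lay within 0.5 either way for 25 of 28, all but Dhcr7, Tm7sf2 and Abcg1.

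**Figure D2:**
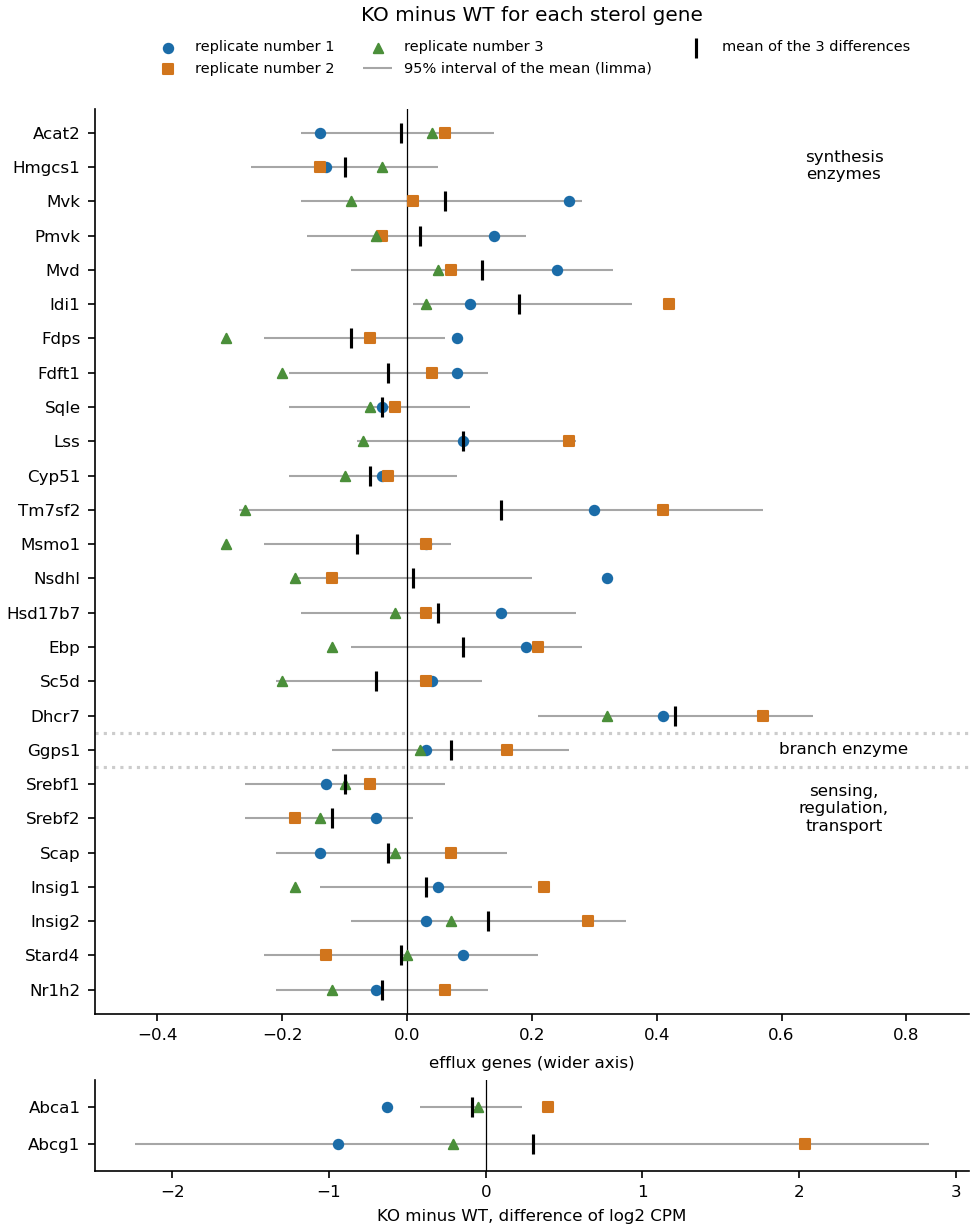
KO minus WT (horizontal axis, difference of log2 CPM) for each sterol gene in pathway order. Coloured points are the 3 replicate numbers, black ticks their mean, grey lines the 95% interval of the mean from limma, and the exporters have a wider axis of their own. All 3 points of Dhcr7 lie between 0.32 and 0.57, while most other genes have points on both sides of 0.

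Dhcr7 showed the clearest separation. Its log2 CPM were 4.48, 4.40 and 4.52 in WT 1 to 3 and 4.89, 4.97 and 4.85 in KO 1 to 3. Every KO library lay above every WT library, a separation of the groups that 27.7% of all genes tested showed in one direction or the other, and the paired differences were 0.41, 0.57 and 0.32. The mean difference was 0.43 ± 0.12 (SD, n = 3 pairs), with a 95% interval from 0.21 to 0.65 (limma unadjusted p = 2.0e-04, adjusted p = 0.0581). Without the replicate block, a fit that counts degrees of freedom already used, Dhcr7 was 1 of 142 genes past 5% FDR (adjusted p = 0.0352). With no filter on low values it was 1 of 95 (0.0371), against 27 genes in the main fit. It did not pass without the variance trend (0.702) or with non-robust moderation (0.17). Nor did it pass without replicate number 1 (0.124) or 3 (0.0637), and it was far from passing without number 2 (0.36, adjusted p = 0.752). The gene lies on the plus strand of chromosome 7 from 143823145 to 143848410 (GRCm38), and its exons overlap no other annotated gene.

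The enzymes that make mevalonate and isoprenoids went both ways. Hmgcs1, which condenses acetoacetyl-CoA to HMG-CoA, read 7.71, 7.71 and 7.67 log2 CPM in WT 1 to 3 and 7.58, 7.58 and 7.63 in KO 1 to 3. The KO libraries were lower in each pair, with a mean difference of -0.10 ± 0.05 (limma adjusted p = 0.776). Idi1 read 5.95, 5.79 and 5.99 in WT and 6.06, 6.22 and 6.02 in KO. The groups did not overlap, but pair 2 made up most of the mean difference of 0.18 ± 0.21 (adjusted p = 0.527), and without replicate number 2 it was 0.07. Mvd, which forms isopentenyl diphosphate, was higher in each KO library, at 5.10, 5.02 and 5.01 against 4.87, 4.95 and 4.96 in WT (0.12 ± 0.10, adjusted p = 0.817).

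Other early enzymes had paired differences of both signs. Fdps, which makes the farnesyl diphosphate used for sterols and for protein anchors, read 8.09, 8.16 and 8.27 in WT and 8.17, 8.10 and 7.98 in KO. The groups overlapped, since KO 1 was above WT 1 and KO 3 was 0.29 below WT 3. Acat2, the kinase genes Mvk and Pmvk and the squalene synthase gene Fdft1 had mean differences of -0.01 ± 0.11, 0.06 ± 0.18, 0.02 ± 0.11 and -0.03 ± 0.15 on the log2 scale. Ggps1, which extends farnesyl to geranylgeranyl diphosphate, read 5.44, 5.38 and 5.45 in WT and 5.47, 5.54 and 5.47 in KO. Its KO libraries were all higher, by a mean of 0.07 ± 0.08 (limma adjusted p = 0.900).

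Among the enzymes from squalene on, the highly expressed Sqle and Cyp51 were the steadiest. Sqle, the squalene epoxidase gene and a control point of the pathway, read 7.91, 7.90 and 7.91 in WT and 7.86, 7.87 and 7.86 in KO, a difference of -0.04 ± 0.02 (limma adjusted p = 0.935). Cyp51 read 8.49, 8.48 and 8.52 in WT and 8.45, 8.46 and 8.42 in KO (-0.06 ± 0.04, adjusted p = 0.893). In both genes the groups did not overlap, and the 95% interval of the difference reached down to -0.19. Msmo1, a C4 demethylation enzyme, read 7.91, 7.91 and 8.07 in WT and 7.94, 7.94 and 7.78 in KO. Pair 3 alone was lower. Nsdhl, which acts with Msmo1, read 5.50, 5.72 and 5.75 in WT and 5.82, 5.60 and 5.57 in KO, so that pair 1 alone was higher.

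The remaining late enzymes had mean differences from -0.05 to 0.15 on the log2 scale. Lss, which closes the sterol ring, differed by 0.09 ± 0.16, the isomerase gene Ebp by 0.09 ± 0.19, Hsd17b7, a ketoreductase, by 0.05 ± 0.09 and the desaturase gene Sc5d by -0.05 ± 0.13. Tm7sf2, at 4.14 CPM in WT, was the least certain of the enzymes, at 0.15 ± 0.36 with an interval from -0.27 to 0.57.

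Neither SREBP gene passed the test. Srebf2 read 8.58, 8.64 and 8.62 log2 CPM in WT 1 to 3 and 8.53, 8.46 and 8.48 in KO 1 to 3. All KO libraries lay below all WT libraries, as in 12.5% of all genes tested, with a mean difference of -0.12 ± 0.07 and an interval from -0.26 to 0.01 (limma unadjusted p = 0.0728, adjusted p = 0.637). Srebf1 read 6.87, 6.83 and 6.85 in WT and 6.74, 6.77 and 6.75 in KO. Its groups did not overlap either, and the difference was -0.10 ± 0.03 (adjusted p = 0.806). The KO levels of Srebf2 and Srebf1 were 0.917 and 0.933 times the WT levels.

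The sterol-sensing partners of SREBP showed no common direction. Scap, the escort gene, differed by -0.03 ± 0.10 and Insig1, itself an SREBP target, by 0.03 ± 0.20. Insig2, the homolog of Insig1, read 4.76, 4.64 and 4.75 in WT and 4.80, 4.92 and 4.82 in KO. Each KO library was higher, by a mean of 0.13 ± 0.14 (limma adjusted p = 0.815). Stard4, a sterol carrier, and Nr1h2, which encodes LXR beta, differed by -0.01 ± 0.11 and -0.04 ± 0.09.

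**Figure D3:**
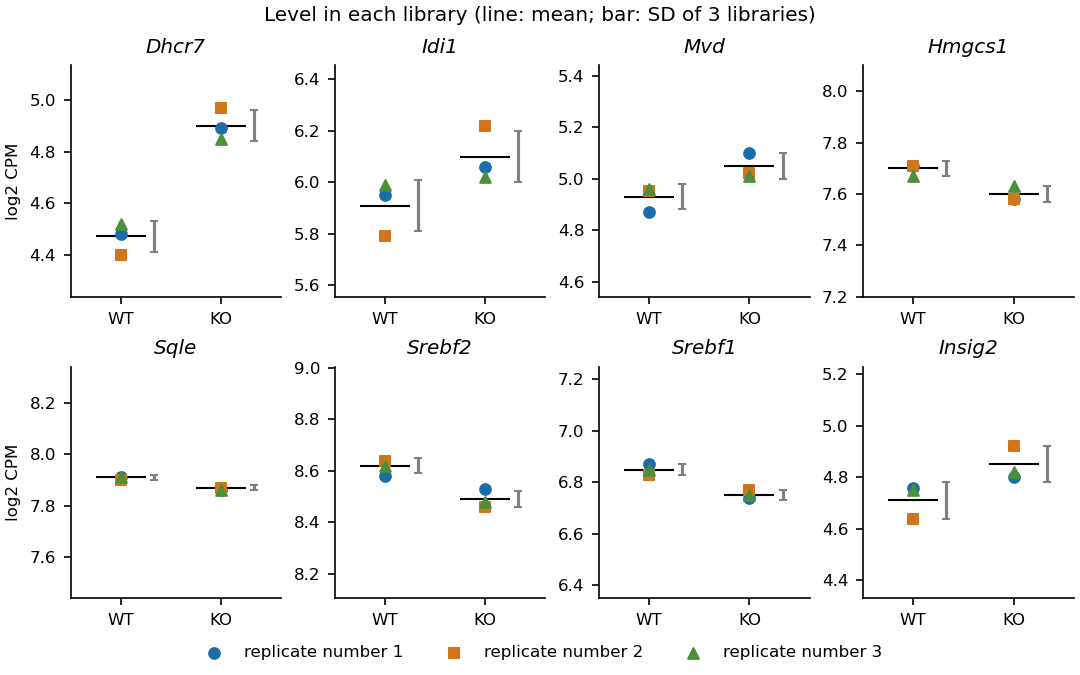
Level in each library (vertical axis, log2 CPM) of 8 sterol genes whose WT and KO libraries do not overlap. Points are libraries coloured by replicate number, lines group means and bars the SD of 3 libraries, and every panel spans the same range. Dhcr7 shows the widest gap, from a WT mean of 4.47 to a KO mean of 4.90, and Sqle the narrowest, from 7.91 to 7.87.

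In all, WT and KO libraries did not overlap for 10 of 28 members, 5 higher in KO (Mvd, Idi1, Dhcr7, Ggps1 and Insig2) and 5 lower (Hmgcs1, Sqle, Cyp51, Srebf1 and Srebf2). Over all genes tested this was so for 27.7%, 15.2% with KO higher and 12.5% with KO lower. Because pair sums are equal to within 0.001, it is in effect the same fact as 3 paired differences of 1 sign and adds nothing to it. The 10 of 28 members (35.7%) are near that background, and nothing is read from which genes they are.

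Synthesis enzymes and the 9 sensing, transport and efflux genes were then set side by side. Of 18 enzymes 10 had a positive and 8 a negative mean difference, with a median of 0.012. Of the 9 others 3 were positive and 6 negative, with a median of -0.029, and over all genes tested the median was 0.004. The difference of the medians, enzymes minus the others, was 0.041 on the log2 scale, and 0.149, -0.044 and 0.025 in pairs 1 to 3. It turned to -0.062 without replicate number 1, so no direction between the roles held over the pairs. The members were chosen with results known, and no test was made of these medians.

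The sign of the enzyme median was not the same in all pairs. In pair 1, 14 of 18 enzymes were higher in KO (median 0.097), in pair 2, 12 (median 0.028), and in pair 3, 4 (median -0.079). The shares over all genes tested were 50.3%, 52.1% and 50.7%. From squalene on, Dhcr7 was the 1 enzyme of 10 that was higher in KO in pair 3, where the median of these 10 was -0.113. The 7 sensing and transport genes had pair medians of -0.049, 0.056 and -0.104. Across the same pairs the summed nuclear RNAs, a possible but not specific sign of RNA quality, differed by -0.38, -1.22 and 0.38 (log2 KO over WT). Most of that sum was Malat1, at 454 CPM in WT and 340 in KO. The summed cycling genes differed by -0.04, -0.15 and -0.01. The part of the nuclear RNAs or of the cycling genes in the pair differences was not tested.

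**Figure D4:**
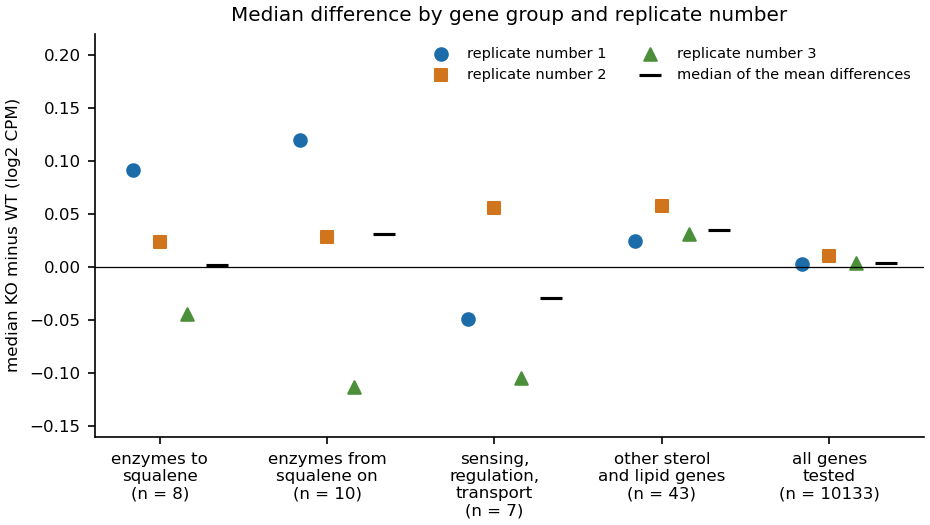
Median KO minus WT (vertical axis, difference of log2 CPM) for 5 groups of genes, with coloured points for the 3 replicate numbers and a black dash for the median of the mean differences. The enzymes from squalene on spread from 0.120 in pair 1 to -0.113 in pair 3, while all genes tested stay between 0.003 and 0.011.

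The exporters varied most between libraries. Abca1 read 3.66, 3.15 and 3.38 log2 CPM in WT and 3.04, 3.55 and 3.33 in KO, with a mean difference of -0.09 ± 0.51 (limma adjusted p = 0.936). Abcg1 read 1.78, 0.29 and 1.42 in WT and 0.84, 2.33 and 1.21 in KO, with paired differences of -0.94, 2.04 and -0.21. The groups of both genes overlapped, and pair 2 went against pairs 1 and 3. For Abcg1 the interval of the mean difference (0.30 ± 1.55) ran from -2.24 to 2.83, so even a change of several-fold was not detectable. Both exporters are known to be high in macrophages. The 12 macrophage markers, of which 10 were under 1 CPM in every library, summed to 11.4 to 16.6 CPM in WT and 9.53 to 13.6 in KO, and their log2 ratio of KO to WT was 0.21, 0.26 and -0.80 in pairs 1 to 3. Naive and follicular B cell markers differed by -0.01, 0.26 and -0.06, erythroid and platelet markers by -0.16, 2.33 and 0.38, and neutrophil markers, each under 1 CPM in every library, by -4.02, 0.64 and -0.66. Pair 2 was highest in these 3 lists and in the macrophage list, as in the exporters, but not in others. The T cell list (-0.78, -0.20 and 0.19) and the B cell list (-0.15, -0.06 and -0.04) were highest in pair 3. The plasma cell list (0.04, -0.23 and -0.16) was lowest in pair 2. Most of that sum was Jchain, at 1850 CPM in WT and 1660 in KO (mean difference -0.16). Other markers of the list went the other way. Prdm1 (mean 0.93), Irf4 (0.54) and Sdc1 (0.53) were higher in KO in each pair, at far lower levels. Xbp1 differed by 0.05, and Tnfrsf17 was under 1 CPM. None of the 4 tested passed 5% FDR by limma. Within the macrophage list Cd68, the marker with the highest level, was highest in pair 1 (0.34, 0.18 and -0.52). Of the erythroid and platelet list, Hba-a1 and Hba-a2 were at the floor in all libraries. The globin gene Hbb-bs, listed as Beta-s, was detected, at 1.18, -0.15 and 1.00 log2 CPM in WT and 1.46, 2.79 and 1.63 in KO. The part of such cells in the exporter values was not tested.

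**Figure D5:**
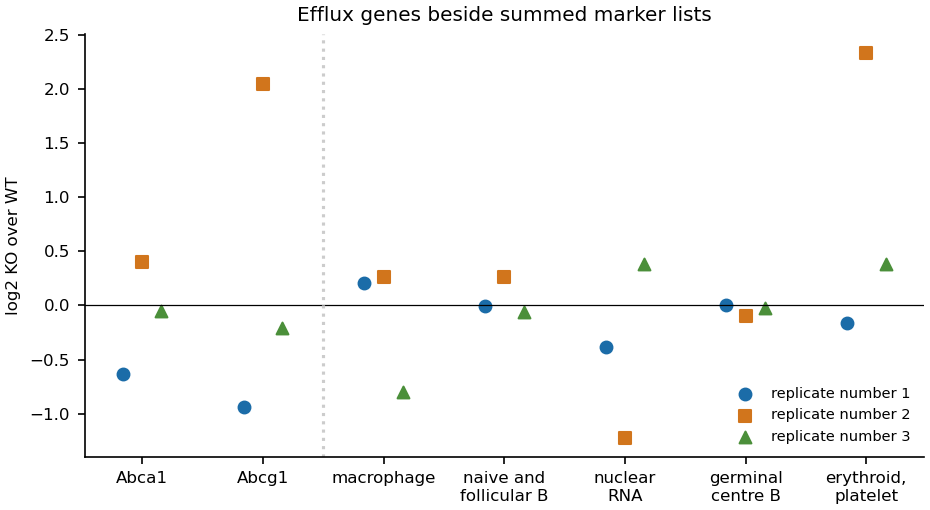
Log2 ratio of KO to WT (vertical axis) in each replicate number for the exporters Abca1 and Abcg1, left of the dotted line, and for summed CPM of 5 marker lists. Abcg1 reaches 2.04 in pair 2 and the erythroid and platelet list 2.33, while the germinal centre list stays between -0.10 and 0.00.

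No other listed gene of sterol and lipid metabolism passed the test. Of 46 listed genes, 43 were tested and 0 passed 5% FDR by limma, against 0.266% of all genes. At an unadjusted p under 0.05 there was 1, against 8.82% of all genes tested. Of the 43, 29 had a positive and 14 a negative mean difference, with a median of 0.035. Over all genes tested, 5201 were positive and 4932 negative, with a median of 0.004. No test was made of this split. The 1 gene at an unadjusted p under 0.05 was Soat1, which esterifies cholesterol for storage. It read 5.07, 4.76 and 4.95 log2 CPM in WT and 5.10, 5.41 and 5.22 in KO. All KO libraries were above all WT libraries, by a mean of 0.31 ± 0.31 (adjusted p = 0.256). Soat1 passed without replicate number 1 (0.46, adjusted p = 0.0480) and not without number 2 (0.15, adjusted p = 1). Small p-values that did not pass were those of Ptdss1, a phosphatidylserine synthase gene (0.17, adjusted p = 0.578), and Lipa, the lysosomal acid lipase gene (0.21, adjusted p = 0.598). Npc2, a lysosomal sterol carrier (0.16), and Fads2, a fatty acid desaturase gene (-0.21), had adjusted p of 0.684 and 0.686. Of the untested genes, Nr1h3 (LXR alpha) and Me1 lay below 1 CPM, and Ch25h, the cholesterol 25-hydroxylase gene, was listed at the floor in all libraries.

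Reads shared between neighbours limit some values. Exons of 10 of the 28 members overlap exons of another annotated gene, for example Fdft1 and Ctsb on opposite strands and Tm7sf2 and Vps51 on the same strand. Whether counting used strand is not stated in the labels or notes, so reads in such overlaps cannot be assigned to 1 gene from these data.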

How the data were processed

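Per the labels, RNA of 3 KO and 3 WT libraries was made with an Illumina TruSeq mRNA kit. The submitters' processing notes name STAR 2.6.1a, featureCounts, Subread 2.0.1, limma, Trim Galore 0.6.5 and FastQC 0.11.7, and the build mm10, without settings. The authors deposited 1 log2 CPM value per gene and library, already scaled between libraries and without a replicate effect, as worked out from the values. Depth is unknown, so no counting interval is given.

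KO and WT were compared by limma 3.58.1 in R 4.3.3 with genotype and replicate number (block), a variance trend, robust moderation, two-sided, Benjamini-Hochberg adjustment over 10133 genes with a geometric mean of at least 1 CPM and unequal values. Removal of the replicate effect fixes the correlation within numbers, so the libraries cannot show whether the numbers pair them, and a fit without the block would count degrees of freedom already used. The model has 2 residual and a median of 81.2 prior degrees of freedom, so most information on spread came from other genes. The fit was also run on simulated normal values whose spread depended on level alone, unlike that of real genes, and nothing is read from that run here. Differences are KO minus WT, with SDs over 3 pairs, and group CPM are geometric means.

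Members, lists and tests were chosen with earlier results of these data known. Named are Basp1, all members, and the 6 other sterol and lipid genes with the smallest p, with the untested genes added after their values were seen. A gene that this rule names is not reported here. Symbols were matched directly or by RefSeq synonym. Other blocks, trends, filters, pseudocounts and scalings and leaving out replicate numbers were tried.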

Additional observations from a re-analysis of the deposited data

How the results depend on the processing

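Without the replicate block, a fit that counts degrees of freedom already used, 142 genes passed 5% FDR by limma in place of 27, among them 1 member (Dhcr7). With no filter on low values 95 genes passed, again with 1 member (Dhcr7). Non-robust moderation gave 12 genes, and no variance trend gave 0 (640 at an unadjusted p under 0.05), with Basp1 at -2.51 and an adjusted p of 0.150. Leaving out a replicate number gave 11 to 136 genes, 0 members each time and 0 to 1 of the other sterol and lipid genes (Soat1). At an unadjusted p under 0.05 there were 2, 1 and 2 members without numbers 1, 2 and 3. Over all 10133 genes tested there were 882, 400 and 1216. The difference of medians ran from -0.062 to 0.101, lowest without number 1. The adjusted p of Dhcr7 ran from 0.0352 to 0.752 over 10 alternatives and its difference from 0.36 to 0.49. The cause of these shifts was not tested. A mean of at least 4 CPM, a pseudocount of 1 CPM and equal library medians changed no call of a member. Over the alternatives 14 members kept the sign of their difference in each and 14 did not in at least 1. Changes of block, trend, moderation or filter leave the difference as it is. Only the pseudocount, equal library medians and leaving out a replicate number could therefore change a sign. Abcg1 has no value at 4 CPM. Depth is unknown, and with 3 pairs an exact sign-flip test cannot go below a two-sided p of 0.25 for 1 gene.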
